A study of Homo sapiens with 8 samples.

Results

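The genes described here encode the Rag GTPases (RRAGA, RRAGB, RRAGC and RRAGD), folliculin and its partners (FLCN, FNIP1 and FNIP2) and the MiT/TFE transcription factors (TFEB, TFE3 and MITF). They were chosen by symbol, as every probe set whose single annotated gene was among these 10. The rule found 23 probe sets of 49293 that were not array controls, and 10 genes of 18132. The rule used measured values in 1 respect, the omission of the Hep3B CU27 columns. The list was also drawn up with earlier results known, among them a higher RRAGD signal with CU27, so the RRAGD values of that comparison are given as a description without a test.

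The groups were Huh7.5.1 cells given 10 μM CU27 for 48 h, Huh7.5.1 cells given the solvent DMSO for 48 h, and Hep3B cells given DMSO for 48 h, with 2 biological replicates of 1 array each. Both are established human liver cancer cell lines, cultured as single lines: Huh7.5.1 is a derivative of Huh7 and Hep3B carries integrated hepatitis B virus DNA. The labels give CU27 as a code name alone. The 2 columns labelled Hep3B CU27 were left out, because each could be computed exactly from the Hep3B DMSO pair (tolerance 1e-06). CU27 in Hep3B is therefore not described. The same relation gives the DMSO pair from the CU27 pair, so it does not show which columns were measured. The 2 Hep3B DMSO columns held equal values at 1086 probe sets. They carry the line comparison and enter the spread shared by all tests, and their independence as replicates could not be checked.

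Rag GTPases sit on the lysosome surface as pairs, RagA or RagB with RagC or RagD, and recruit the growth kinase complex mTORC1 when amino acids are plentiful. Folliculin, bound to FNIP1 or FNIP2, is a GTPase-activating protein for RagC and RagD. The MiT/TFE factors are held in the cytoplasm after phosphorylation by mTORC1 that depends on RagC and RagD, and in the nucleus they switch on lysosome and autophagy genes through a DNA motif named CLEAR. RRAGC, RRAGD, FLCN, FNIP1 and FNIP2 have themselves been described as MiT/TFE target genes in other cells. Where these proteins were located was not measured here.

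Signals are log2 values, and probe sets were kept if any group mean came up to a floor of 6.11, the 50th percentile of the values used. All 10 genes passed, MITF only through Huh7.5.1 DMSO, and 19 of 23 probe sets passed. Each gene is represented by its brightest probe set unless another is named. Signals of different genes are not compared, because probes differ in brightness. Hepatocyte markers were bright in all 3 groups, with ALB, serum albumin, between 14.11 and 14.44 over the 6 arrays. With CU27, 3 of the 8 markers fell and 0 rose, against 12.1% lower and 12.6% higher of 11383 tested genes. The lipoprotein gene APOB fell by 1.28, the transport protein gene TTR by 0.94 and the protease inhibitor gene SERPINA1 by 0.66 (limma adjusted p = 0.00126, 0.00339 and 0.00126). The list median was -0.33. Fibroblast and endothelial lists averaged below the floor on every array. Within them, PDGFRB of the fibroblast list lay above it, at 6.32 to 6.73. KDR of the endothelial list averaged 6.17 in Huh7.5.1 DMSO. Of 5 leukocyte genes PTPRC, at 2.76 to 3.55, CD3E and CSF1R lay below the floor in every group. The remaining pair did not. LYZ, a lysozyme, had signals of 11.44 and 10.57 in Huh7.5.1 CU27, next to 11.86 and 11.83 in Huh7.5.1 DMSO, with 8.09 and 7.36 in Hep3B DMSO, and its difference with CU27 was -0.84 ± 0.29 (limma adjusted p = 0.0657). CD68, a lysosomal membrane protein of macrophages, had signals of 8.86 and 9.34 in Huh7.5.1 CU27, next to 7.04 and 6.67 in Huh7.5.1 DMSO, with 7.15 and 7.16 in Hep3B DMSO. CD68 differed by 2.25 ± 0.20 with CU27 (limma adjusted p = 0.000394), and its other probe set by 0.995. The part of these marker changes in the results was not tested. On these bulk arrays, fewer cells of a kind and less RNA per cell cannot be told apart.

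**Figure D1:**
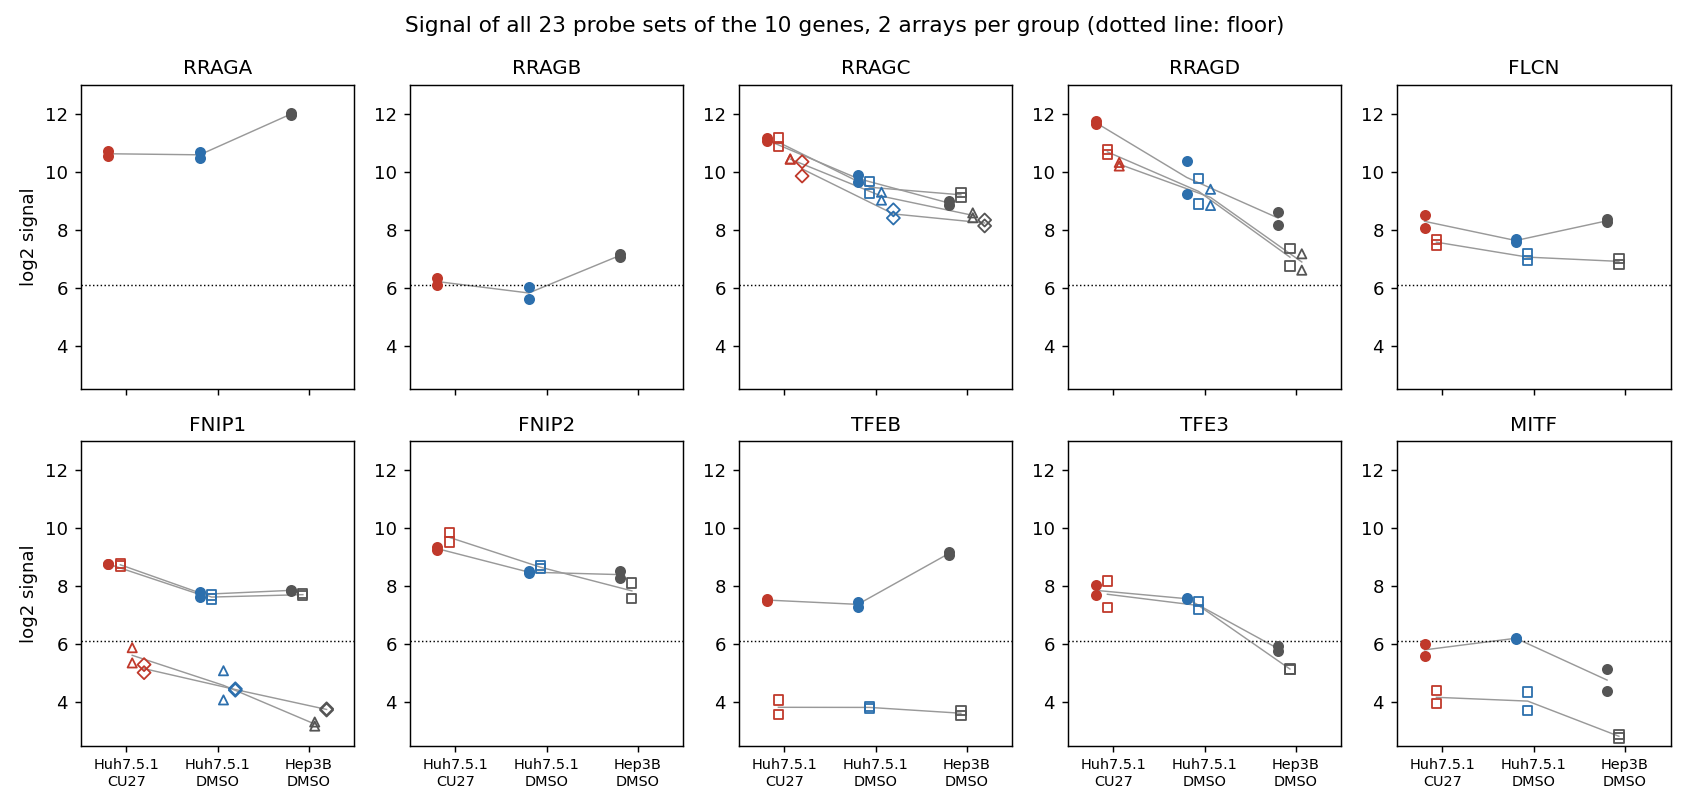
Log2 signal of all 23 probe sets of the 10 genes, with 1 panel per gene, 1 symbol shape per probe set and 2 points per group (1 per array). Filled symbols mark the probe set that represents the gene, grey lines join group means, and the dotted line is the floor of 6.11. RRAGC and RRAGD are highest in Huh7.5.1 CU27, while RRAGA and TFEB are highest in Hep3B DMSO.

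CU27-treated Huh7.5.1 cells had higher RRAGC, FNIP1, FNIP2 and FLCN signals than DMSO-treated cells, by between 1.58-fold and 2.52-fold, and RRAGD was 3.73-fold higher. RRAGA, RRAGB, TFEB, TFE3 and MITF were not past the test. With RRAGD left out, 4 of the 9 genes were past the threshold and higher (limma adjusted p under 0.05), against 12.6% of 11383 tested genes. Of the 9, 0 were lower, against 12.1% of tested genes, and at an unadjusted p under 0.05 the number lower was also 0 in limma, the one tool run. The median log2 difference of the 9 genes was 0.39, against 0.02 over all tested genes.

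RRAGC, the RagC subunit, had signals of 11.05 and 11.16 in CU27 cells, against 9.91 and 9.63 in DMSO cells. Both CU27 arrays lay above both DMSO arrays. The difference was 1.33 ± 0.14 (limma SE, 2 arrays in each group, adjusted p = 0.000722), and 140 of 11383 genes had a more positive one. The other 3 RRAGC probe sets had differences of 1.28, 1.55 and 1.55, each past the test over all 27836 probe sets, in which 10.4% were higher and 11.3% lower.

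RRAGD, the RagD subunit and the alternative to RagC in the pair, had signals of 11.66 and 11.75 in CU27 cells, against 10.37 and 9.25 in DMSO cells. The groups did not overlap, but the DMSO arrays lay further apart than those of any other member in this group. The difference was 1.90 ± 0.31 (SE from limma, n = 2 arrays per group). It was 2.46 without DMSO replicate 1 and 1.34 without DMSO replicate 2. The other RRAGD probe sets differed by 1.36 and 1.14.

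RRAGA, encoding RagA, had signals of 10.71 and 10.54 in CU27 cells, against 10.68 and 10.49 in DMSO cells. These arrays overlapped, and the difference was 0.04 ± 0.12 (limma adjusted p = 0.861). RRAGB, encoding RagB, lay at the floor, with 6.11 and 6.32 in CU27 cells and 5.61 and 6.03 in DMSO cells. Its difference was 0.39 ± 0.19 (limma adjusted p = 0.163). No test set RRAGA or RRAGB against RRAGC or RRAGD.

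Among folliculin and its partners, FNIP1 had signals of 8.77 and 8.77 in CU27 cells, against 7.64 and 7.80 in DMSO cells. The difference was 1.05 ± 0.14 (limma adjusted p = 0.00193), and a second probe set above the floor gave 1.11 ± 0.15. The remaining 2 FNIP1 probe sets lay below the floor in every group. FNIP2, a paralogue of FNIP1 with the same partner, had signals of 9.26 and 9.34 in CU27 cells, against 8.52 and 8.46 in DMSO cells. Its difference was 0.81 ± 0.14 (limma adjusted p = 0.00544), and the other probe set gave 1.03 ± 0.21. For both genes the CU27 arrays lay above the DMSO arrays at all probe sets. The FNIP2 call was lost without DMSO replicate 2, at 0.78 (limma adjusted p = 0.0518, range over alternatives 0.00298 to 0.0518).

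FLCN, encoding folliculin, had signals of 8.07 and 8.52 in CU27 cells, against 7.58 and 7.68 in DMSO cells. The arrays did not overlap and the difference was 0.66 ± 0.17 (limma adjusted p = 0.0250). The other FLCN probe set gave 0.52 ± 0.17, which missed the threshold over all probe sets (limma adjusted p = 0.0602). The FLCN call also rested on single arrays. Its adjusted p was 0.120 without CU27 replicate 2, 0.121 without DMSO replicate 1 and 0.102 without DMSO replicate 2.

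None of the 3 transcription factor genes was past the test with CU27. TFEB, a main activator of lysosome genes, had signals of 7.48 and 7.58 in CU27 cells, against 7.30 and 7.46 in DMSO cells, a difference of 0.15 ± 0.15 (limma adjusted p = 0.508). TFE3, its close relative, had 7.69 and 8.04 in CU27 cells, against 7.60 and 7.55 in DMSO cells, a difference of 0.29 ± 0.17 (limma adjusted p = 0.257). MITF, best known from pigment cells, had 6.01 and 5.61 in CU27 cells, against 6.23 and 6.19 in DMSO cells, a difference of -0.40 ± 0.25. It passed the floor only through Huh7.5.1 DMSO, the higher of these groups, so no p is given. The CU27 arrays lay just above the DMSO arrays for TFEB and TFE3 and just below them for MITF. Over the 9 genes other than RRAGD, 7 had CU27 arrays wholly above the DMSO arrays, against 32.9% of tested genes. Only MITF lay wholly below, against 31.0% of tested genes, and for the reason given this is a description.

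**Figure D2:**
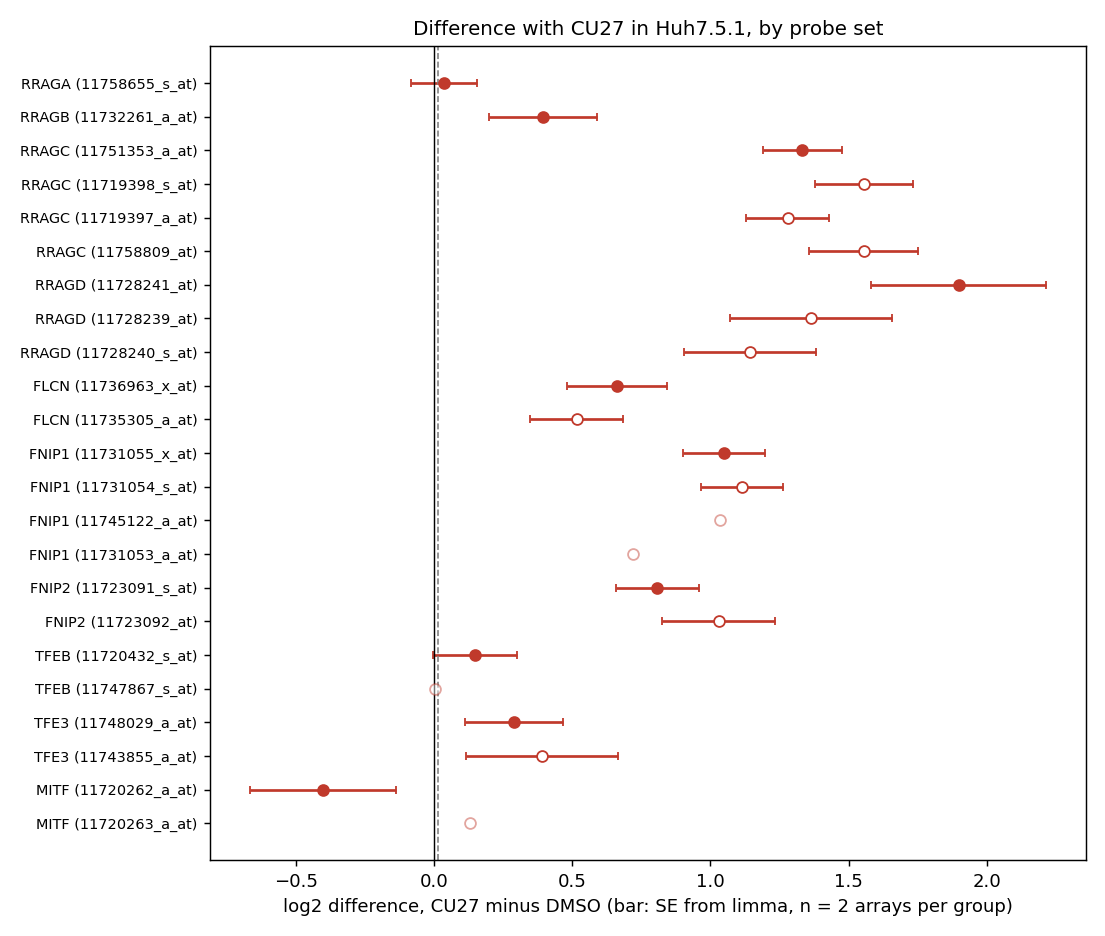
Log2 difference, Huh7.5.1 CU27 minus Huh7.5.1 DMSO, for the 23 probe sets, with bars for the SE from limma (n = 2 arrays per group). Filled points represent the gene, pale points without bars lie below the floor, and the dashed line is the median of all tested genes at 0.02. All RRAGC, RRAGD, FLCN, FNIP1 and FNIP2 probe sets lie above 0.5, and those of RRAGA, RRAGB and the MiT/TFE genes lie between -0.40 and 0.39.

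The number of genes called with CU27 depended on single arrays. It was 2809 with all 6 arrays, 1515 without CU27 replicate 2, 1631 without DMSO replicate 1 and 893 without DMSO replicate 2. Of the 9 members other than RRAGD, 4 were higher and past the threshold with all arrays and 2, RRAGC and FNIP1, without DMSO replicate 2.

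Sequences upstream of the genes that rose were set beside that of a gene that was not past the test, because the CLEAR motif has CACGTG at its core. RefSeq promoter windows (GRCh38.p14, 250 bases before to 50 after a start) were matched for 8 of the 10 genes, in 13 windows. RRAGA and RRAGD were not matched. CACGTG, which reads the same on both strands, was found in the windows of 3 genes: RRAGB, RRAGC and FNIP1. It occurs in 7.26% of all 35116 windows, in 8.77% of 27305 genes with a window, and in 1211 of 9438 tested genes with one. The 250 bases before the start are shown 5′ to 3′ with CACGTG in capitals, for RRAGC (chr1:38859773-38860022, minus strand), FNIP1 (chr5:131797018-131797267, minus strand), FLCN (chr17:17237169-17237418, minus strand) and RRAGB (chrX:55717499-55717748, plus strand).
RRAGC: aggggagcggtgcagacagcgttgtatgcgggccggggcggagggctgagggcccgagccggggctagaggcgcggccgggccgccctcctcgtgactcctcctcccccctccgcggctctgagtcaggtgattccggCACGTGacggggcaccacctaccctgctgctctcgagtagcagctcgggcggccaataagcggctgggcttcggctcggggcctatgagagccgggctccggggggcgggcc
FNIP1: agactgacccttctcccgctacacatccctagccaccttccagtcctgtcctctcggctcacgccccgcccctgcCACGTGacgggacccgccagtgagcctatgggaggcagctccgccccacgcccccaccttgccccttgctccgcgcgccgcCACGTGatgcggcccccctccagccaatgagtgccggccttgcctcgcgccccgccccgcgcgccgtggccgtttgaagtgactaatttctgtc
FLCN: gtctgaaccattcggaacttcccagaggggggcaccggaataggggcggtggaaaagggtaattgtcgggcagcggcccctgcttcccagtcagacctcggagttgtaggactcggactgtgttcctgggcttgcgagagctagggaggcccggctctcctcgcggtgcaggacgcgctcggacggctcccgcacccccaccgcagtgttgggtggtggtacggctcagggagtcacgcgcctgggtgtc
RRAGB: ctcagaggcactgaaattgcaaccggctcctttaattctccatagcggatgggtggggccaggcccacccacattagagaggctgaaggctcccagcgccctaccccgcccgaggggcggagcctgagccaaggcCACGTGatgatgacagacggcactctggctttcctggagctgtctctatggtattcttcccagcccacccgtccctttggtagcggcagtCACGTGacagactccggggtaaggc
RRAGC held CACGTG once, with its first base 112 bases before the start, followed by AC as in the CLEAR motif. FNIP1 held it at 175 and 94 bases before the start, the copy at 175 also followed by AC. RRAGB held it at 115 and 25 bases before the start and once more 8 bases after it. The copy at 25 bases was preceded by GT and followed by AC, so that CACGTGAC reads there on both strands. The longer CACGTGAC, on either strand, occurs in 2.40% of all windows. At least 2 copies of CACGTG were found in 0.664% of windows. FLCN, FNIP2, TFEB, TFE3 and MITF had no CACGTG in these windows. The related M-box TCATGTGA, searched on both strands, was found in 1 of the 2 FNIP2 windows and in 1.00% of all windows, and it does not overlap CACGTG.

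RRAGB, whose signals with and without CU27 lay at the floor, held 3 copies and was not past the test. FLCN and FNIP2 were past the test and had no copy in these windows. The part of the motif in these changes was not tested. Over all tested genes with a window, 12.5% of 9438 were higher with CU27. Among tested genes the share was 13.5% of 1211 with CACGTG and 16.2% of 512 with CACGTGAC, which contains it. It was 23.2% of 112 with TCATGTGA. The share lower was 11.9% over the 9438, 11.1% with CACGTG, 9.77% with CACGTGAC and 13.4% with TCATGTGA. The shares are descriptions, and no test was run on them.

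The lines also differed in these genes without CU27. On the deposited scale 4 genes (RRAGC, RRAGD, TFE3 and MITF) were higher in Huh7.5.1 DMSO than in Hep3B DMSO and 4 (RRAGA, RRAGB, FLCN and TFEB) were lower, against 41.0% and 22.9% of tested genes. MITF had passed the floor only in Huh7.5.1 DMSO, and without it 3 of 9 were higher and 4 lower. Array medians were 6.27 and 6.23 in Huh7.5.1 DMSO, against 5.85 and 5.82 in Hep3B DMSO, and the median difference over all genes was 0.22. With each array centred on its median it was -0.19, so values on both scales are given. After centring, and without MITF, 3 of 9 were higher and 5 lower, FNIP1 being added, against 23.5% and 39.6% of tested genes. TFE3 is counted among the 3 higher on both scales. It lay below the floor in Hep3B DMSO and was tested only through Huh7.5.1, so its call is a description. Calls over all genes split into 4671 higher and 2612 lower as deposited, 2676 and 4502 after centring, and 3145 and 3850 after quantile normalization.

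Among the Rag subunits, RRAGA and RRAGB were lower in Huh7.5.1 DMSO and RRAGD was higher, on both scales. RRAGA had signals of 10.68 and 10.49 in Huh7.5.1 DMSO, against 11.96 and 12.04 in Hep3B DMSO, a difference of -1.41 ± 0.12 (limma adjusted p = 1.22e-05) and of -1.82 after centring. RRAGB had 5.61 and 6.03 in Huh7.5.1 DMSO, below the floor, against 7.07 and 7.16 in Hep3B DMSO. It was at least 2.01-fold lower (limma adjusted p = 0.000334).

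RRAGD had signals of 10.37 and 9.25 in Huh7.5.1 DMSO, against 8.63 and 8.18 in Hep3B DMSO. The difference was 1.40 ± 0.31 (limma adjusted p = 0.00371), or 0.98 after centring, and its other probe sets gave 2.27 and 2.23. For RRAGC the size depended on the probe set. The brightest had 9.91 and 9.63 in Huh7.5.1 DMSO, against 8.87 and 8.98 in Hep3B DMSO, a difference of 0.85 ± 0.14 (limma adjusted p = 0.000671), or 0.43 after centring. The other 3 gave 0.26, 0.31 and 0.66, and after centring these were -0.15, -0.10 and 0.24, with none of the 3 past the test.

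The transcription factor genes also fell on both sides. TFEB had signals of 7.30 and 7.46 in Huh7.5.1 DMSO, against 9.19 and 9.08 in Hep3B DMSO. The difference was -1.76 ± 0.15 (limma adjusted p = 1.25e-05), or -2.17 after centring, the lowest among the 10 genes on both scales. The other TFEB probe set, below the floor in every group, gave 0.20. Over the alternative settings the TFEB difference ran from -2.17 to -0.78. TFE3 had 7.60 and 7.55 in Huh7.5.1 DMSO, against 5.75 and 5.95 in Hep3B DMSO, below the floor. It was at least 2.76-fold higher, and its second probe set at least 2.35-fold. TFE3 was tested only through Huh7.5.1, where it was high, so no p is given and its call is a description.

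MITF reached the floor in Huh7.5.1 DMSO alone, at 6.23 and 6.19, against 4.40 and 5.13 in Hep3B DMSO, at least 1.07-fold higher. It entered the fit only through the group in which it was high, so no p is given. TFEC, the remaining MiT/TFE relative, lay below the floor in every group. Among pigment cell genes, MLANA, TYRP1, TRPM1 and SLC45A2 lay below the floor, and PMEL had signals between 6.52 and 6.62 on all 6 arrays. Between lines 4 of 5 tested pigment cell genes were higher in Huh7.5.1 DMSO than in Hep3B DMSO as deposited, against 41.0% of all tested genes. These were MC1R (0.56), RAB27A (0.75), TYR (at least 1.24-fold) and GPNMB (at least 2.30-fold). RAB27A probe sets ran from -0.18 to 0.75 and GPNMB probe sets from 0.36 to 2.48. TYR and GPNMB lay below the floor in Hep3B DMSO and were tested only through Huh7.5.1, where they were high, so their calls are descriptions. After centring 1 was higher, GPNMB, and 1 lower, PMEL, against 23.5% and 39.6% of all tested genes.

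FLCN and its partners gave no uniform picture between lines. FLCN had 7.58 and 7.68 in Huh7.5.1 DMSO, against 8.27 and 8.36 in Hep3B DMSO, a difference of -0.68 ± 0.17 (limma adjusted p = 0.00795). Its other probe set gave 0.15 ± 0.17 (limma adjusted p = 0.467). The FLCN call was lost without Huh7.5.1 DMSO replicate 1 (limma adjusted p = 0.0510) and without Hep3B DMSO replicate 3 (limma adjusted p = 0.0521), over a range of 0.000452 to 0.462. FNIP1 had 7.64 and 7.80 in Huh7.5.1 DMSO, against 7.86 and 7.87 in Hep3B DMSO, a difference of -0.14 ± 0.14 that missed the threshold as deposited (limma adjusted p = 0.400) and of -0.56 after centring (limma adjusted p = 0.00807). FNIP2 had 8.52 and 8.46 in Huh7.5.1 DMSO, against 8.52 and 8.29 in Hep3B DMSO, with overlapping arrays. Its difference was 0.09 ± 0.14, or -0.33 after centring, neither past the test, while its second probe set gave 0.82 ± 0.21 (limma adjusted p = 0.00764) and 0.40 after centring (limma adjusted p = 0.117).

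**Figure D3:**
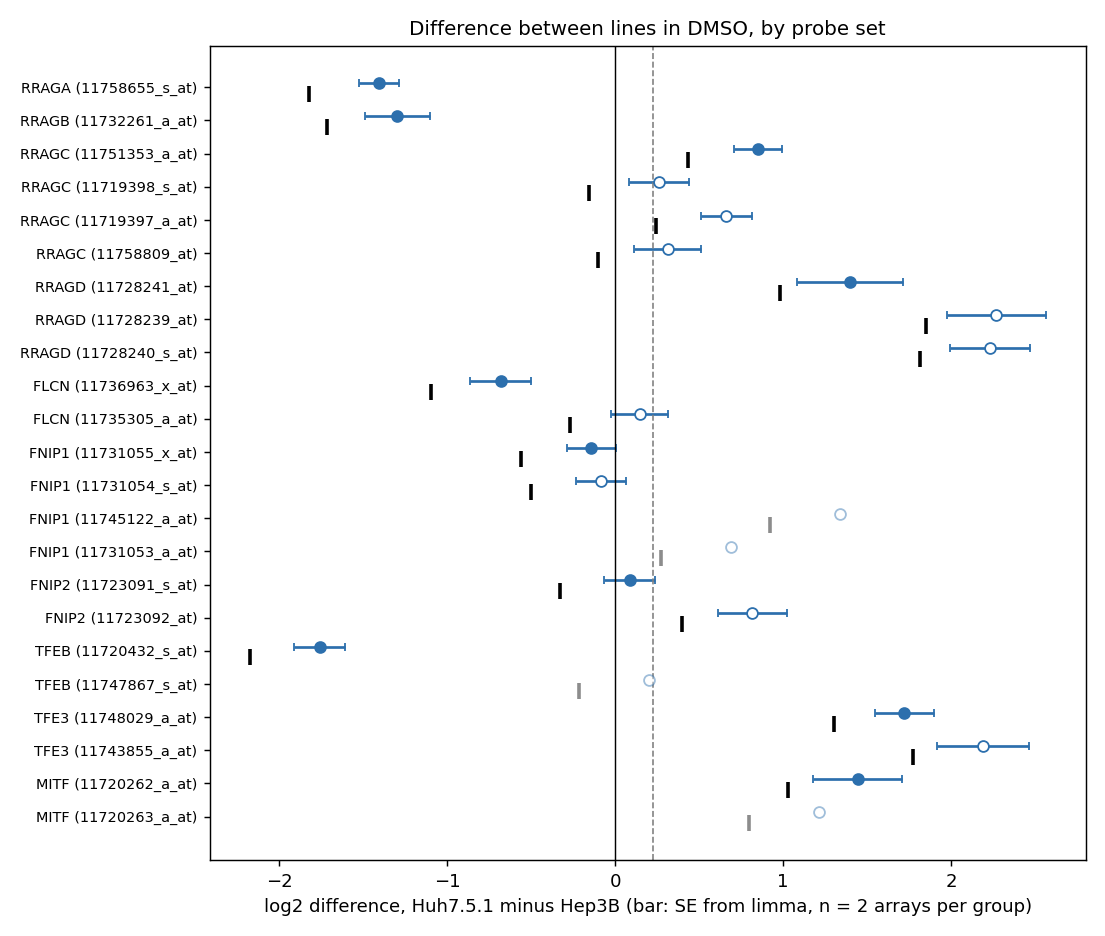
Log2 difference, Huh7.5.1 DMSO minus Hep3B DMSO, for the 23 probe sets, as deposited (circles, with bars for the SE from limma, n = 2 arrays per group) and after centring each array on its median (black ticks). Filled circles represent the gene, pale symbols lie below the floor, and the dashed line is the median of all tested genes at 0.22. The probe sets that represent RRAGA, RRAGB and TFEB lie below -1, and all RRAGD and TFE3 probe sets lie above 1 as deposited.

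A measure of RNA quality moved with the line. The 3′ minus 5′ signal difference of the ACTB control was 0.94 and 1.06 in Huh7.5.1 DMSO, against 2.28 and 1.60 in Hep3B DMSO, and it was 0.98 and 1.21 in Huh7.5.1 CU27. Its part in the line differences was not tested. The order of the 3 groups was Huh7.5.1 CU27, Huh7.5.1 DMSO and Hep3B DMSO for RRAGC and RRAGD at the representing probe sets, with no overlap between neighbouring groups. For RRAGA and TFEB the group means ran Hep3B DMSO, Huh7.5.1 CU27 and Huh7.5.1 DMSO, and the pair of Huh7.5.1 groups did not differ past the test. For TFE3 it was Huh7.5.1 CU27, Huh7.5.1 DMSO and Hep3B DMSO, again with no difference past the test between the Huh7.5.1 groups.

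The genes whose signal followed RRAGD most closely over the 6 arrays were TCP11L2, GADD45G, MX1, AOC3 and CAV1. Likeness was the root mean square difference after subtracting each gene's own mean, which was 0.17 log2 units for TCP11L2, 0.24 for the stress gene GADD45G, 0.27 for MX1, an interferon-induced GTPase, 0.29 for the amine oxidase AOC3 and 0.29 for the caveolin CAV1. TCP11L2 had signals of 6.62 and 6.84 in Huh7.5.1 CU27, next to 4.91 and 4.16 in Huh7.5.1 DMSO, with 3.58 and 3.11 in Hep3B DMSO. CAV1, the one of the 5 above the floor in all groups, had 10.75 and 10.54 in Huh7.5.1 CU27, next to 9.30 and 8.78 in Huh7.5.1 DMSO, with 7.69 and 7.76 in Hep3B DMSO. The other 4 averaged below the floor in both DMSO groups, so their likeness rests partly on signals under it.

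The machinery around the Rag GTPases changed in part with CU27. In the Ragulator list, the scaffold that anchors Rags to the lysosome, 2 of 5 tested genes rose and 1 fell. LAMTOR5 rose by 0.71 ± 0.16 and LAMTOR3 by 0.57 ± 0.15, while LAMTOR2 fell by 0.40. The other LAMTOR3 probe set gave -0.81. In the list of GATOR1, which switches RagA and RagB off, and of KICSTOR, its lysosomal anchor, 2 of 6 were lower and past the threshold, KICS2 and the GATOR1 subunit NPRL3. NPRL3 fell by 0.89. KICS2 averaged 5.84 in CU27 cells, below the floor, against 6.80 in DMSO cells, at least 1.62-fold lower. It passed the floor only in Huh7.5.1 DMSO, where it was high, so its call is a description. NPRL3 probe sets ran from -0.89 to 0.35, and their mean gave -0.22 (limma adjusted p = 0.260). Among GATOR2 subunits and amino acid sensors, 3 of 9 fell: the leucine sensor SESN2 by 1.18, the GATOR2 subunit SEH1L by 0.80 and the leucyl-tRNA synthetase LARS1 by 0.37. In the mTORC1 and TSC list, 3 of 9 rose. These were DEPTOR, an mTOR-binding inhibitor, by 0.75 ± 0.16, TSC2, a brake on mTORC1, by 0.64 ± 0.16, and RHEB, its activating GTPase, by 0.39 ± 0.09. The other TSC2 probe set gave 0.10. RHEB probe sets ran from 0.05 to 0.70, and its call was lost with their mean (0.40, limma adjusted p = 0.0589) and without _x_at and _s_at probe sets (0.05, limma adjusted p = 0.878). MTOR itself differed by 0.01 ± 0.17 and missed the threshold. The medians of these 4 lists were 0.13, -0.29, 0.08 and 0.17.

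Among structural relatives and binding partners of folliculin, 3 of 11 rose. C9orf72 rose by 1.05 ± 0.23, and GABARAPL1 and GABARAPL2, ATG8 proteins of the autophagosome, by 0.87 ± 0.19 and 0.58 ± 0.12. The C9orf72 probe sets ran from 0.20 to 1.05. GABARAPL1 probe sets ran from -0.33 to 0.87, and its call was lost with the mean of all probe sets (0.49, limma adjusted p = 0.0925) and without _x_at and _s_at probe sets (0.71, limma adjusted p = 0.0928). Of 12 tested MiT/TFE regulators, MCOLN1, a lysosomal calcium channel, rose by 0.73 ± 0.17 and the other 11 were not past the test, calcineurin and 14-3-3 genes among them. Of 27 lysosome genes described as CLEAR targets, 12 rose and 1 fell, with a median of 0.41. The sialidase NEU1 rose by 1.04 ± 0.19, the protease CTSB by 0.80 ± 0.12, the proton pump subunit ATP6V0E1 by 0.73 ± 0.11 and the peptidase SCPEP1 by 0.73 ± 0.17, and NAGLU, a heparan sulfate hydrolase, fell by 0.58. Of 8 autophagy genes of the CLEAR network, WIPI1 rose by 0.68 ± 0.18 and VPS11 by 0.61 ± 0.15, the receptor SQSTM1 fell by 0.40, and 5 were not past the test. Without _x_at and _s_at probe sets SQSTM1 was at -0.22 (limma adjusted p = 0.286). In the pigment cell list, 1 of 5 rose, GPNMB, a membrane glycoprotein also made outside pigment cells, by 1.00 ± 0.18, with probe sets from -0.02 to 1.30. The lists were written with earlier results known, so these counts are descriptions, to be read beside the 12.6% higher and 12.1% lower over all genes.

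**Figure D4:**
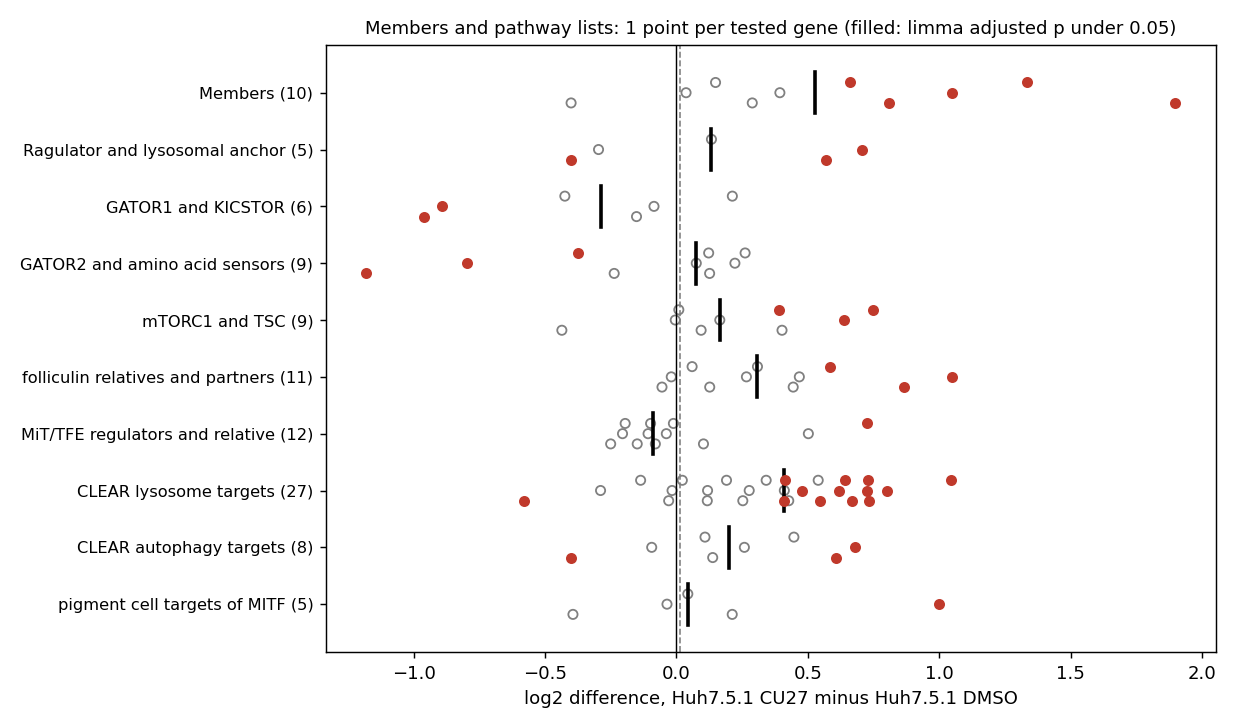
Log2 difference, Huh7.5.1 CU27 minus Huh7.5.1 DMSO, for each tested gene of the 10 members and of 9 pathway lists, with the number of tested genes in brackets. Filled points are past the threshold (limma adjusted p under 0.05), RRAGD is drawn by the same rule as a description, black bars are list medians and the dashed line is the median of all tested genes. The members' median is 0.53 with RRAGD and 0.39 without it, that of the CLEAR lysosome list 0.41, and that of the GATOR1 and KICSTOR list -0.29.

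Of the 23 pathway genes named by rule for CU27, 6 stayed past the threshold with each array left out in turn: KICS2, NPRL3, SEH1L, NEU1, CTSB and ATP6V0E1. Without DMSO replicate 2, 16 lost the call (limma adjusted p from 0.0545 to 0.213), all of the other 17 except SQSTM1. Without CU27 replicate 2, 13 lost it and without DMSO replicate 1, 9 did, SQSTM1 in both cases. Without CU27 replicate 1, LAMTOR3 and LARS1 lost it, and without either Hep3B array LAMTOR2 and LARS1. NAGLU, named outside the rule, lost it without CU27 replicate 1 (limma adjusted p = 0.0667), DMSO replicate 1 (0.0771) or DMSO replicate 2 (0.135). KICS2 had passed the floor only through Huh7.5.1 DMSO, where it was high, so its place among the calls that stayed is a description. Between lines, the named pathway genes above the floor in both groups with the largest differences were GABARAPL1 at 2.46 ± 0.19, SESN2 at 2.42 ± 0.22 and MAP1LC3B, the autophagosome protein LC3B, at 2.08 ± 0.11. Each was higher in Huh7.5.1 DMSO than in Hep3B DMSO on both scales.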

How the data were processed

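Expression was measured on 1 Affymetrix array per culture from biotin-labelled total RNA, per the labels' protocols. The values are log2 signals as deposited by the authors. That they are log2 was read from their range, since the labels do not say so, and the rule that scaled the arrays could not be learned from the sources used. MAS5 is named, without a version, in the submitters' processing notes. Of 8 columns, 6 were used. The platform annotation gave 44988 of 49395 probe sets 1 symbol, 1832 several and 2473 none, and 102 were controls.

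For each of 18132 genes the brightest probe set on average was taken, and 11383 genes reached the floor. The tests between groups used limma 3.58.1 under R 4.3.3 (lmFit, contrasts, eBayes with an intensity trend, 6 arrays, 3 residual and 5.87 prior degrees of freedom), with two-sided p-values adjusted by Benjamini-Hochberg over all genes, and in a second fit over all 27836 probe sets above the floor. With 2 arrays a group, the smallest exact permutation p is 0.333, so none was run. Each p-value sets a difference against a spread estimated from the arrays of all 3 groups and drawn toward that of other genes. Array number limits precision, and no read depth exists. On simulated data with known changes, the procedure recovered 65% of 2-fold and 92% of 4-fold changes, and 3.09% of its calls were false. A gene not past the test may therefore still differ.

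The members and lists were chosen with earlier results of these data known. Named were all members, in each list up to 4 genes past the threshold with the largest CU27 differences and up to 2 between lines, and the 5 genes most like RRAGD. NAGLU, MTOR, MC1R, RAB27A, PMEL, the marker genes and the motif lists were singled out after their values were seen. Some genes of the lists are not reported here.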

Additional observations from a re-analysis of the deposited data

How the results depend on the processing

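Results were recomputed with all 8 columns, Huh7.5.1 arrays only, a replicate block, median centring, quantile normalization, no filter, a floor at the 70th percentile, the mean of all probe sets, no _x_at or _s_at probe sets, no intensity trend, and each array left out. Of 288 member differences under these alternatives, 274 kept their direction and their side of the threshold or were past it in neither case, 8 lost the call, 4 gained it and 2 reversed. With the mean of all probe sets, FNIP1 was at 0.45 and NPRL3 at 0.53 between lines, and LAMTOR3 at -0.12 with CU27. Without _x_at and _s_at probe sets, FLCN was at 0.15, LAMP1 at 0.99 and SQSTM1 at -0.19 between lines. With median centring, LAMTOR3 was at -0.016 and SERPINA1 at -0.40 between lines. Without _x_at and _s_at probe sets 7 members were left, of which 1 was lower between lines, fewer than with all probe sets by construction in part. With no filter 29300 probe sets were called between lines. With each array left out, genes called with CU27 ranged from 893 to 2889, probe sets from 1706 to 6032, and members higher, RRAGD counted, from 3 to 5. The causes of the other changes were not tested.

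The replicate block, possible in Huh7.5.1 alone, called 3526 genes and 8381 probe sets with CU27. The replicate 1 minus replicate 2 differences of CU27 and DMSO correlated at 0.18 over genes. With 2 pairs and no label to say so, this does not show that the numbers pair the cultures.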
